A study of Rattus norvegicus with 16 samples.

Results

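The collagen genes of the rat left ventricle were examined during volume overload, together with the enzymes and helpers that make collagen into a stable fibre. The members are all genes whose annotated symbol names a collagen chain (Col, a number, a and a number), a lysyl oxidase (Lox and Loxl1 to Loxl4), a catalytic subunit of prolyl 4-hydroxylase (P4ha1 to P4ha3) or a lysyl hydroxylase (Plod1 to Plod3), with the chaperone Serpinh1 and the C-propeptide factors Pcolce, Pcolce2 and Bmp1. Of 60 symbols looked for, 54 had a probe set of their own among the 14218 genes of the array, namely 41 collagen chains and 13 enzymes and helpers. Col21a1, Col4a3, Col6a4, Col28a1, Pcolce2 and Loxl4 had none. Within this rule the measured values decided only which probe set stood for a gene, the brightest over all 16 arrays. The rule itself was chosen with earlier results of these data known.

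The 16 left ventricles, each on an array of its own, came from adult Sprague-Dawley males. A control group of 4 was set against 3 groups of 4 that had carried an aortocaval fistula (ACF) for 8, 16 or 24 weeks. The fistula joins the abdominal aorta to the inferior vena cava and so overloads the heart with volume. All groups share the strain and sex, and no engineered allele or drug is named. The methods place compensated hypertrophy at about 8 weeks and heart failure from about 16 weeks. The titles call the control rats baseline whereas the methods describe sham-operated controls. If the baseline rats were younger and unoperated, age and surgery cannot be told apart from the ACF. By the methods the rats had a similar age at surgery, so a single control group cannot match the age of all 3 ACF groups. Between the ACF groups age and time with the fistula rose together and cannot be told apart. The descriptions of the arrays titled 24 weeks read 24, 25, 26 and 27 weeks. Each sample is the whole left ventricle, in which fewer cells of a type and less RNA per cell cannot be told apart.

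Collagens are proteins of 3 chains wound into a triple helix. Fibrillar collagens bear the tension of the heart wall, FACIT collagens sit on the fibril surface, and network and beaded-filament collagens line cells and vessels. Inside the cell prolyl and lysyl hydroxylases modify the chains and the chaperone HSP47, the product of Serpinh1, escorts the folded helix. Outside it BMP1 removes the C-propeptide with help from PCOLCE, and lysyl oxidases then crosslink the fibrils. In the heart fibroblasts are the main source of the fibrillar chains, and crosslinked collagen is known for stiffening the ventricle.

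Values are log2 intensities on a scale where the median of each array is 0, so a difference of 1 is a 2-fold change. Levels are never set against those of another gene, since probes differ in brightness. Differences are between group means with 4 arrays per group, SE is that of the limma model, and a gene rose or fell where its p, adjusted by the Benjamini-Hochberg method over all 14218 genes, was under 0.05. The background is the share of all genes that met the same rule. It is given for the main fit and for the threshold of the methods, and counts from other fits stand without one. Before centring, array medians took 2 levels, 0.207 apart, the higher held by 4 of 4 controls, by 3 of the 8-week and 2 of the 16-week arrays and by 0 of the 24-week arrays, and the lower by the rest. The arrays of the lower level were 8-week replicate 2, 16-week replicates 3 and 4 and all of the 24-week arrays. Wherever 16-week replicates 1 and 2 are set apart from replicates 3 and 4, they thus differ in level as well as in rat. The sources used here name no batch. Control replicate 4 stood apart in collagen expression. It was the highest of the controls for 35 of the 54 members and for 11 of the 12 that rose at 16 weeks.

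At 16 weeks 12 of the 54 members rose and 0 fell, against a background of 5.83% higher and 3.26% lower. They were 8 of the 41 chains, namely Col1a2, Col3a1, Col5a2, Col5a3, Col12a1, Col14a1, Col8a1 and Col8a2, and 4 of the 13 enzymes and helpers, namely Lox, Loxl1, Loxl2 and Plod2. The rises ran from 0.45 for Col3a1 to 2.00 for Lox. Every class other than the fibrillar, FACIT, short-chain, lysyl oxidase and lysyl hydroxylase genes had 0 members that passed. The median difference of the members was 0.066 and that of all genes -0.0022. All 4 arrays at 16 weeks lay above all 4 control arrays for 12 members (background 10.1%) and below them for 3 (background 6.32%), namely Col2a1, Col9a2 and Col10a1. Without adjustment 21 of the 54 had a p under 0.05 (background 24.3%). The difference was above 0 for 33 members (background 49.6%). The threshold of the methods, a fold change above 1.5 with an unadjusted p under 0.05, was met by 12 higher members (background 4.18%), which are the 12 that rose with P4ha1 in the place of Col3a1, and by 1 lower member, Col6a6 (background 1.88%). As deposited, where the median of all genes itself lay at -0.12 against control, 6 members rose and 3 fell (Col2a1, Col6a2 and Col9a2). With array level as a block 12 rose, with P4ha1 in the place of Col8a2, and 3 fell (Col24a1 at -0.64, Col4a2 at -0.62 and Col6a2 at -0.53). Within the arrays of the higher level 12 rose, with P4ha1 in the place of Col5a3, and 2 fell (Col24a1 at -0.83 and Col4a2 at -0.67). The counts of these 3 fits are given without the share of all genes.

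At 8 weeks 0 members passed limma in either direction (background 0.0492% higher and 0.00703% lower), and the methods' t-test also called 0. Without adjustment 14 of the 54 had a p under 0.05 (background 7.82%). All 4 arrays at 8 weeks lay above all 4 controls for 12 members (background 3.43%), namely Lox, Loxl1, Loxl2, Plod2, Col3a1, Col4a5, Col5a1, Col5a2, Col5a3, Col8a1, Col14a1 and Col16a1. The difference was above 0 for 42 members (background 49.1%). The median was 0.12 for the members and -0.003 for all genes. The methods' threshold was met by 8 members, all higher (background 1.22%). Without 24-week replicate 2, which enters the shared spread, Loxl1, Lox, Col8a1 and Col14a1 passed at 8 weeks. Within the arrays of the higher level Loxl1 (1.25), Lox (1.47), Col8a1 (1.11) and Col5a2 (0.64) passed.

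At 24 weeks 3 members rose and 1 fell (background 0.612% higher and 0.295% lower). Loxl1, Col8a1 and Col14a1 rose and Col6a5 fell. All 4 arrays lay above the controls for 6 members (background 4.82%) and below them for 2 (background 4.46%). The control and 24-week arrays share no array level, so in this comparison level and condition were separated only through the other groups. With level as a block in the model 0 members passed, as with the methods' t-test. The limma fit without it gave 13 members an unadjusted p under 0.05 (background 16.2%), and 32 had a difference above 0 (background 50.1%). At the methods' threshold 6 were higher (background 2.22%) and 1 was lower (background 0.781%). As deposited, with the median of all genes at -0.205, 3 rose and 4 fell. The 3 comparisons share the same control arrays and are not independent of each other.

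**Figure D1:**
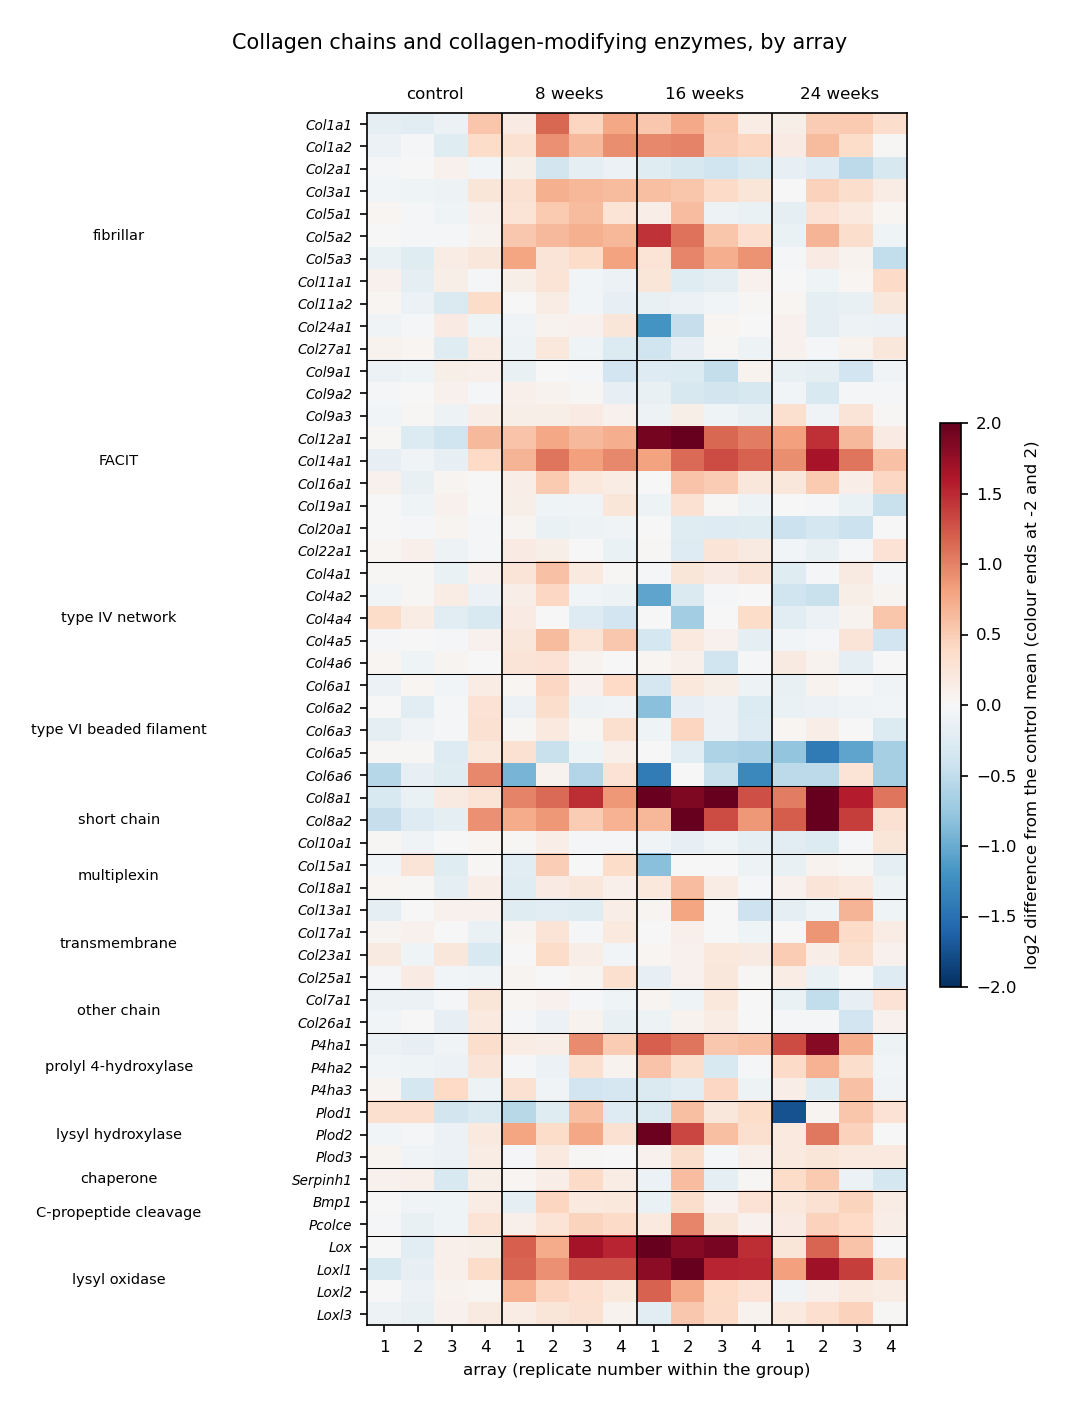
Log2 difference of each of the 54 members (rows, by class) from its control mean in each of the 16 arrays (columns, by group and replicate), with colours ending at -2 and 2. The reds gather in a few rows, Loxl1, Lox, Col8a1, Col8a2, Col12a1 and Col14a1, and are deepest in the arrays at 16 weeks, while most type IV, transmembrane and other chains stay pale.

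The lysyl oxidases, copper enzymes that oxidise lysines so that fibrils crosslink, gave 3 of the 12 rises at 16 weeks. Loxl1, best known for elastin crosslinking, had the smallest adjusted p of the members. Its values, in order of replicate number, were 2.04, 2.18, 2.44 and 2.72 in the control arrays, 3.503, 3.27, 3.63 and 3.64 at 8 weeks, 4.13, 4.39, 3.87 and 3.86 at 16 weeks and 3.17, 4.04, 3.73 and 2.82 at 24 weeks. The lowest ACF array at any time lay above the highest control array. The difference from control was 1.16 (SE 0.22, adjusted p = 0.0643) at 8 weeks, 1.72 (SE 0.22, adjusted p = 0.000416) at 16 weeks and 1.09 (SE 0.22, adjusted p = 0.0276) at 24 weeks, which is 3.29-fold at 16 weeks. At 8 weeks Loxl1 passed in 9 of 27 alternatives, among them without control replicate 4 or 24-week replicate 2 or 4. The 9 include the methods' threshold, which uses the unadjusted p. The call at 16 weeks held in all 27 alternatives (adjusted p from 7.25e-05 to 0.0343 over 27 alternatives). The call at 24 weeks was lost in 8 of 26 (adjusted p from 0.00272 to 0.253 over 26 alternatives), among them the fits without control replicate 1, 2 or 3 or 24-week replicate 2 or 3.

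Lox, the founding member of the family, crosslinks collagen and elastin. It read 1.06, 0.84, 1.15 and 1.16 in the control arrays, 2.26, 1.80, 2.73 and 2.58 at 8 weeks, 3.85, 2.87, 2.95 and 2.53 at 16 weeks and 1.29, 2.22, 1.63 and 1.07 at 24 weeks. The arrays at 8 and 16 weeks all lay above the controls, whereas those at 24 weeks overlapped them, with 24-week replicate 2 the highest of its group. The difference was 1.29 (SE 0.27, adjusted p = 0.0983) at 8 weeks and 2.00 (SE 0.27, adjusted p = 0.000591) at 16 weeks, a 3.99-fold rise and the largest of any member. At 24 weeks it was 0.50 (SE 0.27, adjusted p = 0.375), a value that went down to 0.28 without 24-week replicate 2 and up to 1.16 with array level as a block, in neither case past the threshold (adjusted p from 0.144 to 0.754 over 26 alternatives). At 8 weeks Lox passed in 7 of 27 alternatives, among them without 16-week replicate 1 or 24-week replicate 2. The 7 include the methods' threshold, which uses the unadjusted p. From 16 to 24 weeks Lox changed by -1.50 (SE 0.27, adjusted p = 0.084), and the arrays of these groups did not overlap. Without 24-week replicate 2 that difference was -1.72 with an adjusted p of 0.0207, the one alternative to make a call in this comparison by adjusted p.

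Loxl2, which acts on type IV collagen and on fibrils, read -0.26, -0.37, -0.18 and -0.21 in the control arrays, 0.44, 0.18, 0.09 and -0.048 at 8 weeks, 0.92, 0.50, 0.15 and 0.04 at 16 weeks and -0.32, -0.15, -0.063 and -0.099 at 24 weeks. Every array at 16 weeks lay above every control, while the 24-week arrays lay within or just above the control range. Loxl2 rose at 16 weeks by 0.66 (SE 0.15, adjusted p = 0.0141). The differences were 0.42 (SE 0.15, adjusted p = 0.438) at 8 weeks and 0.096 (SE 0.15, adjusted p = 0.81) at 24 weeks. The second probe set of Loxl2 gave 0.665, 0.796 and 0.516 in order of time (SE 0.21). Adjusted over all probe sets, its limma p was 0.45, 0.0346 and 0.245. The 2 probe sets thus differed most in size at 24 weeks, where neither passed. Loxl3, a further amine oxidase of the family, did not pass at any time, with 0.19, 0.19 and 0.25 in order of time (adjusted p at 16 weeks = 0.46).

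**Figure D2:**
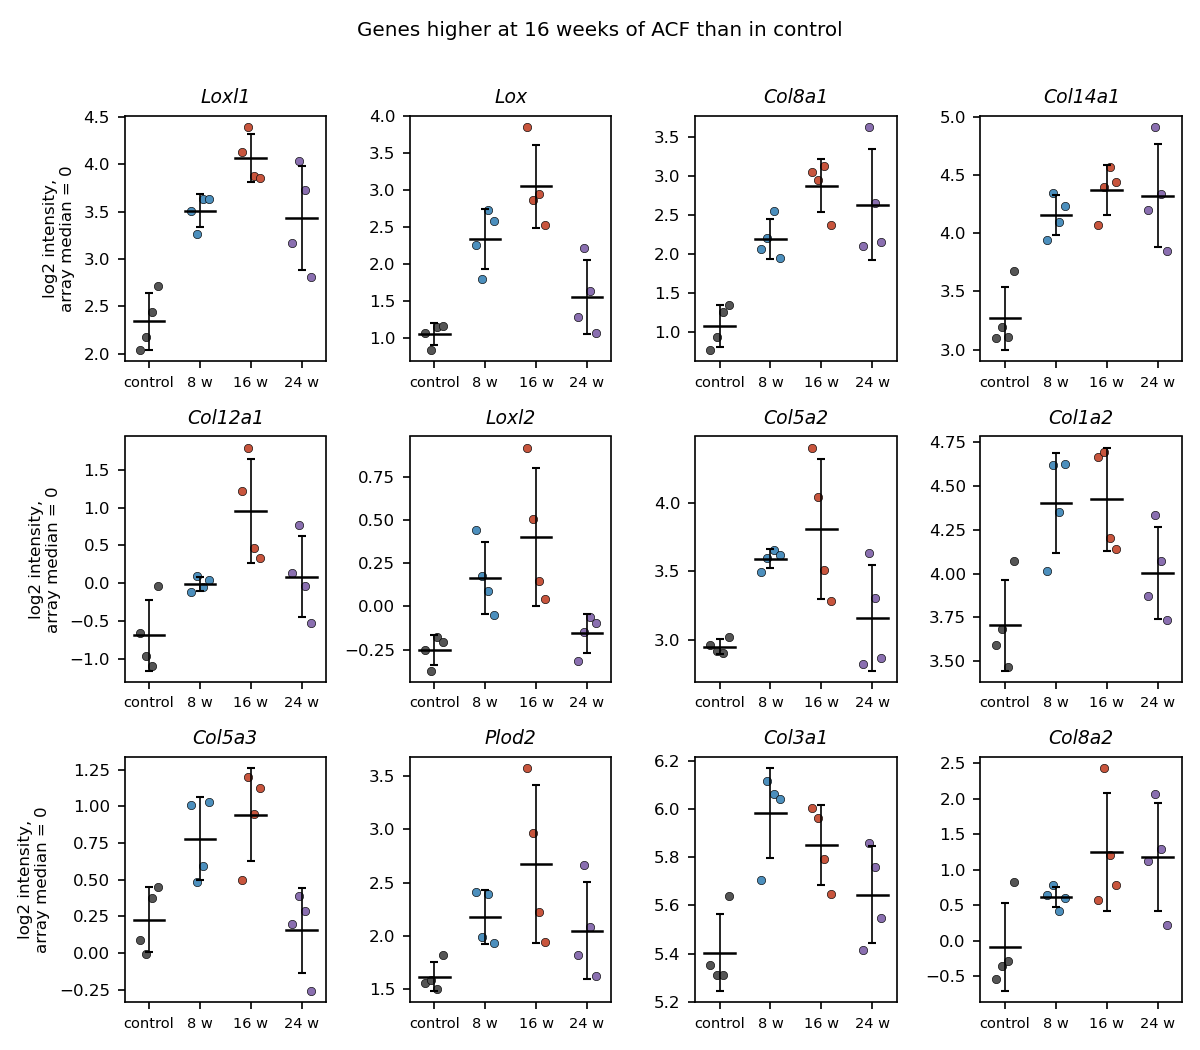
Log2 intensity (vertical axis, array median = 0) of the 12 members that rose at 16 weeks, with 1 point per array by group (horizontal axis), lines at group means and bars of 1 SD (n = 4). Lox has its highest mean at 16 weeks and 24-week values that overlap the controls, whereas Col8a1 and Col14a1 stay up, with means of 2.64 and 4.32 at 24 weeks against 1.08 and 3.27 in control.

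The short-chain collagens VIII and X form open networks. Col8a1 and Col8a2 encode the chains of type VIII collagen, a product of vascular and cardiac stromal cells. Col8a1 read 0.77, 0.95, 1.26 and 1.35 in the control arrays, 2.07, 2.21, 2.55 and 1.96 at 8 weeks, 3.06, 2.95, 3.13 and 2.38 at 16 weeks and 2.11, 3.63, 2.66 and 2.15 at 24 weeks. All 12 ACF arrays lay above all 4 controls. The difference was 1.12 (SE 0.27, adjusted p = 0.141) at 8 weeks, 1.80 (SE 0.27, adjusted p = 0.00108) at 16 weeks and 1.56 (SE 0.27, adjusted p = 0.0181) at 24 weeks, or 3.48-fold at 16 weeks. All 27 alternatives kept the call at 16 weeks, and at 24 weeks it was lost in 5 of 26 (adjusted p from 0.00249 to 0.226 over 26 alternatives), among them without control replicate 1 or 2 or 24-week replicate 3.

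Col8a2 rose at 16 weeks by 1.34 (SE 0.39, adjusted p = 0.0412), but its groups overlapped. Control replicate 4 read 0.83, above 16-week replicates 1 and 4, and 16-week replicate 2 reached 2.43. The differences were 0.70 (SE 0.39, adjusted p = 0.73) at 8 weeks and 1.27 (SE 0.39, adjusted p = 0.119) at 24 weeks, where it passed without 24-week replicate 4, at 1.58. The call at 16 weeks was lost in 14 of 26 alternatives (adjusted p from 0.00745 to 0.211 over 26 alternatives), including the fits without control replicate 1 (1.19), 2 (1.25) or 3 (1.27) and without 16-week replicate 2 (0.94) or 3 (1.35). It was lost too without 8-week replicate 1, 3 or 4 or 24-week replicate 1 or 3, which enter the shared spread only, with the difference still at 1.34. Col10a1, the chain of hypertrophic cartilage collagen, differed by -0.13 (SE 0.099, adjusted p = 0.468) at 16 weeks.

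The sequences before the annotated starts of Loxl1, Col8a1 and Col8a2 are shown because Loxl1 had the smallest adjusted p and Col8a1 and Col8a2 are partner chains that both rose. They are the 250 bases before the start on the gene's own strand, read 5′ to 3′ from RefSeq on the build GRCr8, and capitals mark matches on either strand to the motifs named after them.
Loxl1, chr8:67612225-67612474, minus strand: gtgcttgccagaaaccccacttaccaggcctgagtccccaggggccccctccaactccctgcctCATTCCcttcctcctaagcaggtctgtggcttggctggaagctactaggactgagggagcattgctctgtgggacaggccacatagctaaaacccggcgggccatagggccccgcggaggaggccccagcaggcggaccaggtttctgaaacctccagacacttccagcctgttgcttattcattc
Col8a1, chr11:56246532-56246781, plus strand: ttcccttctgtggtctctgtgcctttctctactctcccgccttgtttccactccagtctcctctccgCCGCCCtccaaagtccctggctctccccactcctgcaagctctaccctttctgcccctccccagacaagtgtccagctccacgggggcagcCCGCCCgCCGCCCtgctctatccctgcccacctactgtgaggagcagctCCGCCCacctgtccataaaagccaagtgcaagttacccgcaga
Col8a2, chr5:143870519-143870768, plus strand: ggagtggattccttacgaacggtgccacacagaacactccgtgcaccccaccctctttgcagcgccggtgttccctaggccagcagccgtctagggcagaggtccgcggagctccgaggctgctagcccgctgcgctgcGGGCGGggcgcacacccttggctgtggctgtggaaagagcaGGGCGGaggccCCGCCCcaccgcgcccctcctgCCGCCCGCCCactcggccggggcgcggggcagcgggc
The motifs searched on both strands were TATAAA (the TATA box), CCAAT (the CCAAT box), GGGCGG (the GC box), GGAATG (the TEAD or MCAT motif) and TGANTCA (AP-1). Col8a1 held 4 GC boxes and Col8a2 held 5, of which the last pair overlapped each other. In the Loxl1 stretch the 1 match was to GGAATG, on the opposite strand. The table held such a stretch for 42 of the 54 members and for 7 of the 12 that rose at 16 weeks. A GC box stood in 59.5% of the member promoters, in 4 of the 7 (Col5a3, Col8a1, Col8a2 and Plod2), and in 32.3% of all 27457 promoters. The TEAD motif stood in 16.7% of member promoters and 11.8% of all, CCAAT in 21.4% and 34.2%, TATAAA in 9.52% and 13.1%, and AP-1 in 2.38% and 6.39%. A match describes the letters in this stretch and not a bound site.

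Of the 11 fibrillar chains 4 rose at 16 weeks, 0 passed at 8 weeks and 0 at 24 weeks. Col1a1 and Col1a2 encode the chains of type I collagen, the main tension-bearing fibre. Col1a1 read 3.25, 3.21, 3.32 and 4.01 in the control arrays, 3.61, 4.60, 3.88 and 4.23 at 8 weeks, 3.98, 4.20, 3.97 and 3.59 at 16 weeks and 3.56, 3.95, 3.96 and 3.80 at 24 weeks. Control replicate 4, at 4.01, stood above the next control, at 3.32, inside the range of the 8- and 16-week arrays and above all 4 of the 24-week arrays. The difference was 0.63 (SE 0.21, adjusted p = 0.349) at 8 weeks, 0.49 (SE 0.21, adjusted p = 0.149) at 16 weeks and 0.37 (SE 0.21, adjusted p = 0.386) at 24 weeks. Without control replicate 4 Col1a1 passed at 16 weeks, at 0.68 with an adjusted p of 0.0414 (adjusted p from 0.0414 to 0.316 over 27 alternatives), and its difference at 24 weeks was 0.56. The second probe set of Col1a1 gave 0.73, 0.49 and -0.083 in order of time, so that the probe sets differed in sign at 24 weeks.

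Col1a2 read 3.59, 3.69, 3.47 and 4.07 in the control arrays, 4.02, 4.62, 4.35 and 4.63 at 8 weeks, 4.67, 4.69, 4.20 and 4.14 at 16 weeks and 3.87, 4.34, 4.07 and 3.73 at 24 weeks. All 4 arrays at 16 weeks lay above the controls, the lowest of them only just above control replicate 4. Col1a2 rose at 16 weeks by 0.72 (SE 0.18, adjusted p = 0.0181), a 1.65-fold change, after a difference of nearly the same size at 8 weeks, 0.70 (SE 0.18, adjusted p = 0.179). At 24 weeks it was 0.30 (SE 0.18, adjusted p = 0.426). The call at 16 weeks was lost without control replicate 1 or 3 or 16-week replicate 1 or 2, with differences from 0.63 to 0.68 (adjusted p from 0.00728 to 0.122 over 27 alternatives).

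Col3a1 encodes the single chain of type III collagen, which shares fibrils with type I. It read 5.35, 5.31, 5.31 and 5.64 in the control arrays, 5.71, 6.12, 6.06 and 6.04 at 8 weeks, 6.004, 5.96, 5.79 and 5.65 at 16 weeks and 5.41, 5.86, 5.76 and 5.55 at 24 weeks. The arrays at 8 and 16 weeks lay above the controls, the lowest at 16 weeks by little. The difference was 0.58 (SE 0.12, adjusted p = 0.107) at 8 weeks, 0.45 (SE 0.12, adjusted p = 0.0328) at 16 weeks and 0.24 (SE 0.12, adjusted p = 0.358) at 24 weeks. The rise at 16 weeks was 1.36-fold, the smallest of the 12. It did not pass in 9 of 27 alternatives, among them without control replicate 1, 2 or 3 or 16-week replicate 1 or 2, with differences from 0.40 to 0.43 (adjusted p from 0.0192 to 0.146 over 27 alternatives).

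Type V collagen nucleates type I fibrils and limits their width. Of its chains Col5a2 and Col5a3 rose at 16 weeks. Col5a2 read 2.96, 2.92, 2.91 and 3.02 in the control arrays, 3.499, 3.60, 3.66 and 3.62 at 8 weeks, 4.40, 4.04, 3.51 and 3.28 at 16 weeks and 2.83, 3.63, 3.31 and 2.87 at 24 weeks. The controls were tight and all 8 arrays at 8 and 16 weeks lay above them, with 16-week replicates 1 and 2 highest, while the 24-week arrays overlapped the controls. The difference was 0.86 (SE 0.20, adjusted p = 0.0141) at 16 weeks, 0.64 (SE 0.20, adjusted p = 0.339) at 8 weeks and 0.21 (SE 0.20, adjusted p = 0.655) at 24 weeks. Col3a1 and Col5a2 are neighbours in the rat gene order, and both rose at 16 weeks.

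Col5a3 read 0.087, -0.01, 0.38 and 0.45 in the control arrays, 1.01, 0.48, 0.59 and 1.03 at 8 weeks, 0.50, 1.203, 0.95 and 1.13 at 16 weeks and 0.20, 0.39, 0.29 and -0.26 at 24 weeks. All arrays at 8 and 16 weeks were higher than any control, and no 24-week array was. Col5a3 rose at 16 weeks by 0.72 (SE 0.18, adjusted p = 0.0188). It differed by 0.55 (SE 0.18, adjusted p = 0.344) at 8 weeks and -0.072 (SE 0.18, adjusted p = 0.884) at 24 weeks, and from 16 to 24 weeks by -0.79 (SE 0.18, adjusted p = 0.217), with no overlap between those groups. The call at 16 weeks was lost without control replicate 1 or 2 or 16-week replicate 2, with differences from 0.63 to 0.67, and among the arrays of the higher level alone, where the difference was 0.63 (adjusted p from 0.00252 to 0.119 over 26 alternatives).

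The partner chain Col5a1 differed by 0.43 (SE 0.15, adjusted p = 0.386) at 8 weeks, where all 4 arrays lay above the controls, and by 0.13 (SE 0.15, adjusted p = 0.643) at 16 weeks. Col24a1, Col27a1, Col11a1, Col11a2 and Col2a1 complete the fibrillar group. At 16 weeks their differences ran from -0.41 for Col24a1 to -0.023 for Col11a1, and none passed. Col2a1, the cartilage fibril chain, lay below all controls in every 16-week and 24-week array, with -0.31 (SE 0.10, adjusted p = 0.0655) at 16 weeks and -0.32 (SE 0.10, adjusted p = 0.13) at 24 weeks. The other 2 probe sets of Col2a1 gave 0.053 and -0.079 at 16 weeks. For Col24a1 the low values came from 16-week replicate 1, at -0.25, and replicate 2, at 0.47, while the other 16-week arrays read 0.98 and 0.92 against 0.86 to 1.10 in control.

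Of the 9 FACIT chains 2 rose at 16 weeks. Col14a1, a fibril-surface collagen of mature connective tissue, read 3.10, 3.19, 3.11 and 3.67 in the control arrays, 3.94, 4.34, 4.10 and 4.24 at 8 weeks, 4.07, 4.40, 4.57 and 4.44 at 16 weeks and 4.20, 4.91, 4.34 and 3.85 at 24 weeks. All 12 ACF arrays lay above all 4 controls, although control replicate 4, at 3.67, stood well above the next control, at 3.19. The difference was 0.89 (SE 0.19, adjusted p = 0.0983) at 8 weeks, 1.10 (SE 0.19, adjusted p = 0.00232) at 16 weeks and 1.06 (SE 0.19, adjusted p = 0.0211) at 24 weeks, close to 2-fold throughout. The call at 16 weeks held in all 27 alternatives. At 24 weeks it was lost in 6 of 26 (adjusted p from 0.00192 to 0.234 over 26 alternatives), among them without control replicate 1, 2 or 3 or 24-week replicate 3.

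Col12a1, a FACIT chain of tissue under tension, read -0.66, -0.96, -1.08 and -0.037 in the control arrays, -0.12, 0.095, -0.043 and 0.042 at 8 weeks, 1.22, 1.79, 0.47 and 0.33 at 16 weeks and 0.14, 0.78, -0.035 and -0.53 at 24 weeks. The 16-week arrays lay above the controls, with replicates 1 and 2 above every other array. The rise at 16 weeks was 1.64 (SE 0.30, adjusted p = 0.00363), or 3.11-fold. The differences were 0.68 (SE 0.30, adjusted p = 0.595) at 8 weeks and 0.77 (SE 0.30, adjusted p = 0.212) at 24 weeks, the latter 1.35 with array level as a block. The gene has 3 probe sets, and the other 2 did not pass at 16 weeks, with 0.27 and -0.076, so the rise rests on 1 of them. The other 7 FACIT chains, Col9a1, Col9a2, Col9a3, Col16a1, Col19a1, Col20a1 and Col22a1, differed by -0.29 to 0.32 at 16 weeks and none passed. Among them Col9a2 lay below all controls in the 4 arrays at 16 weeks, by -0.29 (SE 0.09, adjusted p = 0.0562), and Col16a1 above all controls at 8 and 24 weeks, by 0.25 (SE 0.13, adjusted p = 0.693) and 0.33 (SE 0.13, adjusted p = 0.226).

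**Figure D3:**
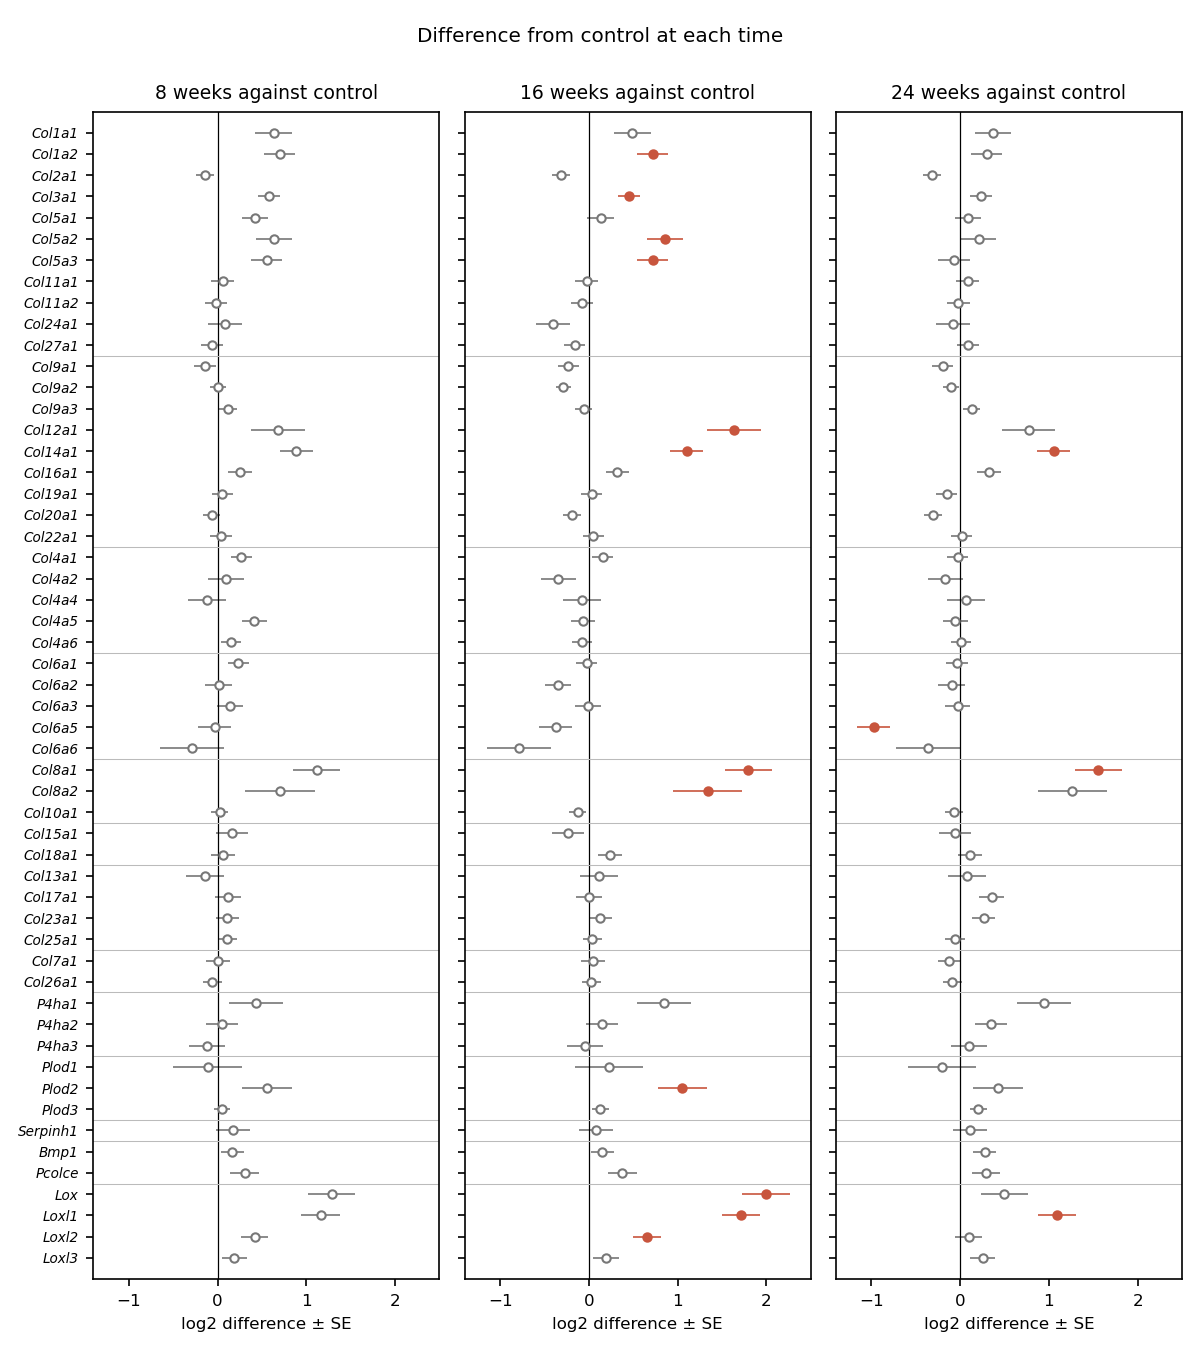
Log2 difference from control with its SE (horizontal axis) of each of the 54 members (vertical axis, by class) at 8, 16 and 24 weeks, with filled points for members that passed. From left to right the panels hold 0, 12 and 4 points that passed, and the type VI chains all lie at or left of 0 in the 16- and 24-week panels.

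Type IV collagen is the sheet of basement membranes, and none of its 5 measured chains passed at any time. An unadjusted p under 0.05 was found for 2 at 8 weeks and 0 at 16 and 24 weeks. The background of that count was 7.82%, 24.3% and 16.2% in order of time. Col4a1, with Col4a2 the common pair of vessel and muscle-fibre membranes, read 4.39, 4.38, 4.23 and 4.46 in the control arrays, 4.63, 4.96, 4.56 and 4.40 at 8 weeks, 4.33, 4.61, 4.53 and 4.62 at 16 weeks and 4.13, 4.33, 4.55 and 4.35 at 24 weeks. The groups overlapped at each time. The difference was 0.27 (SE 0.12, adjusted p = 0.593) at 8 weeks, 0.15 (SE 0.12, adjusted p = 0.47) at 16 weeks and -0.026 (SE 0.12, adjusted p = 0.945) at 24 weeks. The second probe set of Col4a1 gave 0.514, 0.336 and -0.116 in order of time (SE 0.13). Adjusted over all probe sets, its limma p was 0.234, 0.153 and 0.715. Col4a2, the neighbour of Col4a1 on the chromosome, differed by -0.35 (SE 0.20, adjusted p = 0.304) at 16 weeks. There replicate 1, at 3.07, lay far below the controls at 4.01 to 4.28 and replicate 2, at 3.84, also lay below them. With array level as a block Col4a2 fell, by 0.62 on the log2 scale with an adjusted p of 0.0329. Col4a5, of a second type IV network, lay above all controls at 8 weeks, by 0.41 (SE 0.14, adjusted p = 0.367), and differed by -0.066 (SE 0.14, adjusted p = 0.828) at 16 weeks. Col4a4 and Col4a6 complete the class. At 16 weeks the class ran from -0.35 to 0.15.

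Type VI collagen forms beaded filaments next to cell surfaces. Its 5 measured chains, Col6a1, Col6a2, Col6a3, Col6a5 and Col6a6, differed by -0.79 to -0.012 at 16 weeks, none passing, and by -0.98 to -0.03 at 24 weeks. Col6a5 was the 1 member that fell. It read -0.41, -0.41, -0.70 and -0.22 in the control arrays, -0.13, -0.89, -0.52 and -0.34 at 8 weeks, -0.45, -0.64, -1.06 and -1.09 at 16 weeks and -1.22, -1.84, -1.49 and -1.10 at 24 weeks. All 24-week arrays lay below all other arrays of the study, the highest of them only just below 16-week replicate 4. The values also followed the array level, since every array of the lower level lay below every array of the higher level. Outside the 24-week group the arrays of the lower level were 8-week replicate 2, at -0.89, and 16-week replicates 3 and 4, at -1.06 and -1.09. The fall at 24 weeks was -0.98 (SE 0.19, adjusted p = 0.0235), 0.509 of the control level, after -0.032 (SE 0.19, adjusted p = 0.993) at 8 weeks and -0.37 (SE 0.19, adjusted p = 0.235) at 16 weeks, the latter -0.10 with array level as a block. The call at 24 weeks was lost without control replicate 1 or 2 or 24-week replicate 2 or 3, and it was -0.44 in the fit with the level as a block (adjusted p from 0.00351 to 0.406 over 25 alternatives). Col6a6, the chain next to it in the gene order, varied widely, from -1.12 to 0.42 among controls.

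The remaining chains did not pass at any time. They are the multiplexins Col15a1 and Col18a1, basement-membrane zone collagens, the transmembrane collagens Col13a1, Col17a1, Col23a1 and Col25a1, and the chains Col7a1, of anchoring fibrils, and Col26a1. At 16 weeks they ranged from -0.23 for Col15a1 to 0.24 for Col18a1, and at 24 weeks from -0.12 for Col7a1 to 0.35 for Col17a1.

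Of the enzymes and helpers that act inside the cell Plod2 alone passed, at 16 weeks. Of 3 lysyl hydroxylases 1 rose at 16 weeks. Plod2, which hydroxylates lysines in the telopeptides and so sets the kind of crosslink, read 1.56, 1.59, 1.51 and 1.82 in the control arrays, 2.41, 1.99, 2.39 and 1.93 at 8 weeks, 3.57, 2.96, 2.22 and 1.94 at 16 weeks and 1.82, 2.67, 2.09 and 1.63 at 24 weeks. All arrays at 8 and 16 weeks lay above the controls, but 16-week replicates 1 and 2 stood well above the other arrays of their group. The rise at 16 weeks was 1.06 (SE 0.28, adjusted p = 0.0261), or 2.08-fold. It was 0.56 (SE 0.28, adjusted p = 0.671) at 8 weeks and 0.43 (SE 0.28, adjusted p = 0.475) at 24 weeks. The value at 24 weeks was 0.22 without 24-week replicate 2 and 1.22 with array level as a block, and it passed in 0 of 26 alternatives. The call at 16 weeks was lost in 8 of 27 alternatives (adjusted p from 0.000574 to 0.184 over 27 alternatives), among them without control replicate 1, 2 or 3 or 16-week replicate 2 and without 16-week replicate 1, where the difference was 0.76. Within the arrays of the higher level it was 1.65. Plod1 and Plod3, the other lysyl hydroxylases, differed by 0.23 (adjusted p = 0.777) and 0.13 (adjusted p = 0.433) at 16 weeks.

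None of the 3 prolyl 4-hydroxylase subunits, which make the hydroxyproline that holds the helix at body temperature, passed. An unadjusted p under 0.05 was found for 0 at 8 weeks (background 7.82%), 1 at 16 weeks (background 24.3%) and 1 at 24 weeks (background 16.2%). P4ha1, the main subunit in most tissues, read 2.19, 2.15, 2.23 and 2.67 in the control arrays, 2.46, 2.45, 3.25 and 2.81 at 8 weeks, 3.51, 3.38, 2.85 and 2.90 at 16 weeks and 3.62, 4.13, 3.05 and 2.22 at 24 weeks. At 16 weeks all 4 arrays lay above the controls, while 24-week replicate 4, at 2.22, lay among them. The difference was 0.43 (SE 0.30, adjusted p = 0.826) at 8 weeks, 0.85 (SE 0.30, adjusted p = 0.0893) at 16 weeks and 0.94 (SE 0.30, adjusted p = 0.133) at 24 weeks. At 16 weeks P4ha1 passed in 7 of 27 alternatives, among them without 24-week replicate 2 or 4 and within the arrays of the higher level, where the difference was 1.13 (adjusted p from 0.00556 to 0.216 over 27 alternatives). The 7 include the methods' threshold, which uses the unadjusted p. At 8 weeks the difference was 0.26 without 8-week replicate 3. At 24 weeks it passed without replicate 4, at 1.29, and it was 1.44 with array level as a block (adjusted p from 0.0144 to 0.407 over 26 alternatives). P4ha2 and P4ha3 differed by 0.15 and -0.045 at 16 weeks.

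Serpinh1, whose product HSP47 binds the helix in the endoplasmic reticulum, did not pass. It read 4.46, 4.47, 4.06 and 4.48 in the control arrays, 4.41, 4.51, 4.75 and 4.51 at 8 weeks, 4.25, 4.99, 4.17 and 4.39 at 16 weeks and 4.74, 4.90, 4.26 and 4.02 at 24 weeks. The groups overlapped at each time. The difference was 0.18 (SE 0.19, adjusted p = 0.92) at 8 weeks, 0.081 (SE 0.19, adjusted p = 0.849) at 16 weeks and 0.11 (SE 0.19, adjusted p = 0.825) at 24 weeks. Without replicate 2 of the ACF group the differences at 16 and 24 weeks were -0.098 and -0.029, below 0. Of the C-propeptide factors, Bmp1 differed by 0.15 (SE 0.13, adjusted p = 0.518) and Pcolce by 0.38 (SE 0.16, adjusted p = 0.161) at 16 weeks. The second probe set of Bmp1 went the other way from the first at each time, with -0.12, -0.185 and -0.291 against 0.165, 0.15 and 0.278. Pcolce replicate 2 at 16 weeks, at 2.80, was far above the other arrays of its group, which read from 1.91 to 2.08.

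Between ACF times limma called 0 of the 54 members, and 0 of all 14218 genes (0% in each direction), in each of the 3 comparisons. Without adjustment 11 members had a p under 0.05 from 8 to 16 weeks (background 8.69%), 10 from 16 to 24 weeks (background 9%) and 11 from 8 to 24 weeks (background 5.46%). The methods' t-test, adjusted over all genes, also called 0 in each. From 8 to 16 weeks 25 members moved up (background 51.9%), from 16 to 24 weeks 25 (background 48.5%) and from 8 to 24 weeks 19 (background 51.1%). All 16-week arrays lay above all 8-week arrays for Col12a1 and Loxl1 (background 2.71%) and below them for Col10a1 and Col4a5 (background 1.46%). All 24-week arrays lay below all 16-week arrays for Lox, Loxl2, Col5a3 and Col6a5 (background 1.64%), and below all 8-week arrays for the last 3 of these (background 1.22%). At the threshold of the methods 3 members were higher at 16 than at 8 weeks (background 1.12%), Col12a1 by 0.96, Lox by 0.71 and Col8a1 by 0.68. From 16 to 24 weeks 7 members were lower by that threshold (background 0.978%), namely Lox, Loxl1, Col5a2, Col5a3, Col6a5, Col12a1 and Plod2, with differences from -1.50 to -0.60. From 8 to 24 weeks 3 were lower (background 0.169%), Col6a5, Lox and Col5a3. Within the arrays of the higher level, 4 members passed from 8 to 16 weeks by adjusted p, with Col12a1 at 1.54, Plod2 at 1.02, Col5a2 at 0.63 and Col24a1 at -0.91.

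A second reading of a gene came from the members with several probe sets, 19 of the 54. Adjusted over all probe sets, the second probe sets of Col14a1 (0.84), Col5a2 (0.89), Lox (1.44) and Loxl2 (0.80) passed at 16 weeks as well, with adjusted p of 0.038, 0.00773, 0.0136 and 0.0346. The second probe set of Col1a2 did not, at 0.43 with an adjusted p of 0.12. For Col1a1 both probe sets gave 0.49 at 16 weeks, with adjusted p of 0.187 and 0.0526, but at 24 weeks they gave 0.37 and -0.083. Col3a1, Col5a3, Col8a1, Col8a2, Loxl1 and Plod2 have 1 probe set each.

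The rats of a group did not take the same place throughout. Over the 12 members that rose at 16 weeks, the mean difference from control was 1.36 in 16-week replicate 1, 1.46 in replicate 2, 1.03 in replicate 3 and 0.82 in replicate 4, and the 8-week arrays spanned only 0.73 to 0.83. At 24 weeks replicate 2 was the highest of its group for 11 of the 12, with a mean of 1.14, and replicate 4 the lowest for 8, with 0.20. Among the controls the same mean was -0.14 to -0.054 in replicates 1 to 3 and 0.32 in replicate 4. Control replicate 4 thus lay above 24-week replicate 4, while the other 11 ACF rats lay above all controls, and the rats of a group differed most at 24 weeks. At 16 weeks replicates 1 and 2 held the higher array level and replicates 3 and 4 the lower. Rat and level therefore cannot be told apart in that split. Since the 12 were chosen by their rise at 16 weeks, these means are a description.

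Genes of the collagen pathway that are not members were read from lists of their own. The background was 0.0492% higher and 0.00703% lower at 8 weeks. It was 5.83% and 3.26% at 16 weeks and 0.612% and 0.295% at 24 weeks. For an unadjusted p under 0.05 the background was 7.82%, 24.3% and 16.2% in order of time. Of 15 folding and modification genes of the endoplasmic reticulum, such as the disulfide isomerase P4hb and the prolyl isomerase Fkbp10, 0 passed at any time (unadjusted p under 0.05 for 2 at 8 weeks, 4 at 16 weeks and 4 at 24 weeks). P4hb differed by 0.28 (SE 0.11, adjusted p = 0.105) and P3h3, a prolyl 3-hydroxylase, by 0.47 (SE 0.15, adjusted p = 0.0537) at 16 weeks. Of 9 secretion and propeptide genes 0 rose and 1 fell at 16 weeks, Mia2, a cargo factor of the exit sites, by -0.35 (SE 0.082, adjusted p = 0.0131).

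Of 14 fibril partners 5 rose at 16 weeks and 0 fell (background 5.83% higher and 3.26% lower). Postn, a matricellular protein that binds collagen and BMP1, rose by 4.28 (SE 0.54, adjusted p = 0.000416). Fbn1, the microfibril protein, rose by 1.62 (SE 0.21, adjusted p = 0.000416) and had passed at 8 weeks, at 1.31 (SE 0.21, adjusted p = 0.0327). Tnc, a matricellular protein, rose by 2.35 (SE 0.40, adjusted p = 0.00232), Fn1, the fibronectin on which collagen assembles, by 1.46 (SE 0.29, adjusted p = 0.005), and Dcn, a fibril-binding proteoglycan, by 0.50. At 24 weeks 2 of the 14 rose, Postn and Fbn1. Of 12 breakdown and receptor genes 3 rose at 16 weeks, the collagen-cutting cathepsin Ctsk by 0.80 (SE 0.14, adjusted p = 0.00227), the shared integrin chain Itgb1 by 0.55 (SE 0.13, adjusted p = 0.0117) and the membrane collagenase Mmp14 by 0.82 (SE 0.25, adjusted p = 0.0457). Mmp2, Mmp8 and Mmp13 did not pass, with 0.65, 0.087 and 0.12. At 24 weeks 1 of the 12 rose, Ctsk.

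Markers of cell types moved beside the collagen genes, and their part in the results was not tested. Of 8 macrophage markers 2 rose at 8 weeks, 7 at 16 weeks and 4 at 24 weeks. Averaged over the list the level was 0.92 to 1.23 in control, 1.68 to 2.00 at 8 weeks, 1.88 to 2.55 at 16 weeks and 1.54 to 2.02 at 24 weeks, with every ACF array above every control. Mrc1, a macrophage endocytic receptor that takes up collagen fragments, rose by 1.72 (SE 0.19, adjusted p = 0.00019) at 16 weeks. Of 8 activated fibroblast markers 0 rose at 8 weeks, 4 at 16 weeks (Postn, Ccn2, Tnc and Ltbp2) and 2 at 24 weeks, and the mean level was 0.021 to 0.85 in control, 0.76 to 1.11 at 8 weeks, 1.27 to 2.21 at 16 weeks and 0.73 to 1.32 at 24 weeks. The arrays at 16 weeks lay above the controls and those at 8 and 24 weeks overlapped them. Postn, Tnc and Comp are also fibril partners, and Fap is also in the breakdown list. Likewise Dcn, a fibril partner, is counted again among the cardiac fibroblast markers.

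Of 8 cardiac fibroblast markers 0 rose at 8 weeks, 3 at 16 weeks and 1 at 24 weeks. At 16 weeks Mfap5 rose by 1.304 (SE 0.20, adjusted p = 0.00127), Dcn by 0.50 and Thy1 by 0.84, and at 24 weeks Mfap5 rose by 0.91 (SE 0.20, adjusted p = 0.0415), while the defining genes Pdgfra and Tcf21 differed by 0.18 (SE 0.17, adjusted p = 0.569) and -0.26 (SE 0.14, adjusted p = 0.29) at 16 weeks. The mean of that list was 3.86 to 4.20 in control and 4.23 to 4.45 at 16 weeks. Of 8 smooth muscle and pericyte markers 0 passed at any time (unadjusted p under 0.05 for 1, 0 and 1 in order of time). For these counts by unadjusted p, here and below, the background was 7.82%, 24.3% and 16.2% in order of time. Of 7 endothelial markers 0 passed at 8 weeks and 1 at each later time, Vwf, which rose by 1.31 (SE 0.21, adjusted p = 0.00156) at 16 weeks and 1.19 (SE 0.21, adjusted p = 0.0188) at 24 weeks. Of 7 ventricular cardiomyocyte markers 0 passed at any time (unadjusted p under 0.05 for 0, 1 and 0), and these markers, which define the labelled tissue, had a mean from 7.60 to 7.93 in the 16 arrays. Of 5 epicardial markers 0 passed (unadjusted p under 0.05 for 1 at each time), of 4 Schwann cell and nerve markers 2 rose and 1 fell at 16 weeks and 0 passed at 8 or 24 weeks, and of 4 adipocyte markers 0 passed at 8 or 16 weeks and 1 rose at 24 weeks, Cfd.

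**Figure D4:**
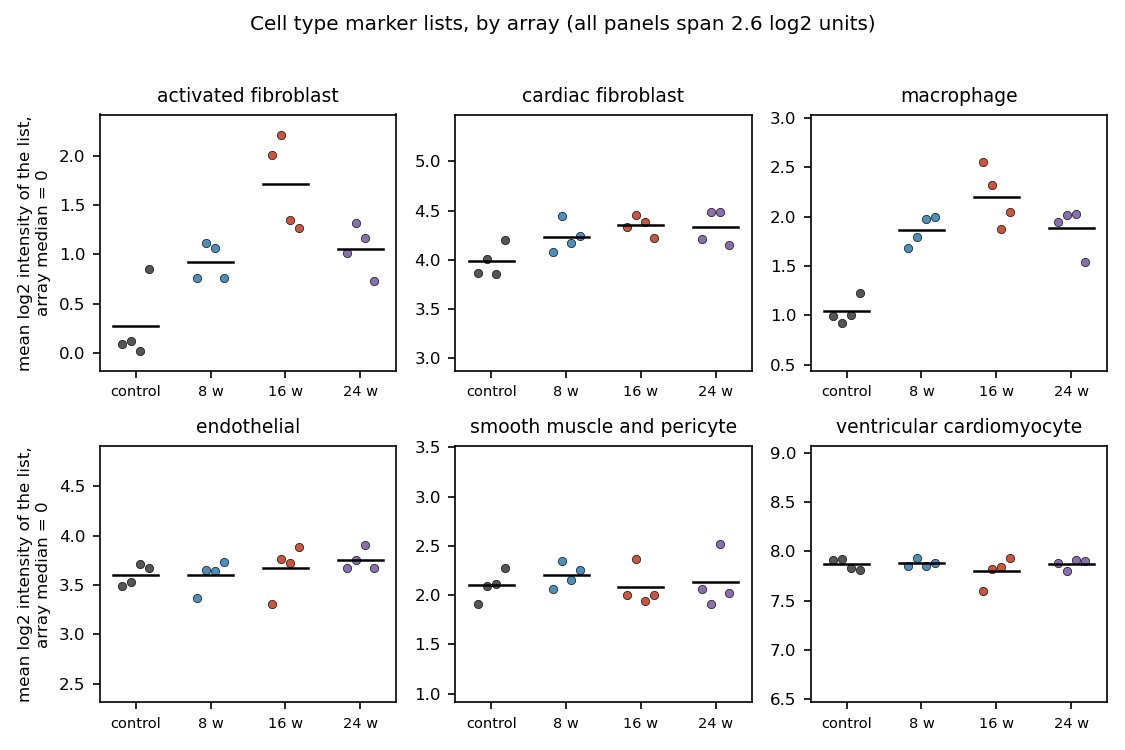
Mean log2 intensity of each cell type marker list (vertical axis, array median = 0, all panels 2.6 log2 units high) in each array, by group (horizontal axis), with lines at group means. The macrophage list lies higher in all 12 ACF arrays than in any control and the activated fibroblast list is highest at 16 weeks, from 1.27 to 2.21, while the cardiomyocyte list stays between 7.60 and 7.93.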

How the data were processed

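Total RNA of 16 rat left ventricles, 4 per group, was hybridised to Affymetrix arrays with 1 array per rat. The authors' log2 values, 1 per probe set and array, are RMA values, which is to say background-corrected, quantile-normalized and summarised over probes, from Affymetrix Expression Console 1.2, per the labels, and they cover 31099 probe sets. The methods name a different rat array from that of these probe sets. Raw intensities were not used here. The number of arrays limits the precision.

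Each array was centred on its median. Symbols came from GEO's platform annotation. Of the probe sets 20832 carry 1 symbol, 436 several and 9831 none, and only the first were used. The probe set with the highest mean over 16 arrays stood for a gene, which gave 14218 genes. Of these, 14168 matched a current gene ID, with 0 changes among the member symbols, and this table (GRCr8) also gave the gene order. In limma 3.58.1 (R 4.3.3) the 4 group means were fitted together, and 6 contrasts between them were adjusted over all genes (Benjamini-Hochberg, threshold 0.05). With 4 arrays against 4, the exact permutation test (two-sided) cannot give a p below 0.0286. Where 1 group lay wholly above or below the other, its p was that value. No label says that the rats of a group were raised or processed apart. The array medians took 2 levels within the 8- and 16-week groups, although the values are given as quantile-normalized. The cause of the levels was not tested. The functions were tested on simulated data first.

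Per-array values are given for Col1a1, Col1a2, Col3a1, Col4a1, Serpinh1, P4ha1, Plod2 and Lox, and for up to 10 members with the smallest adjusted p among those that passed against control. Of each other list up to 4 genes with the smallest adjusted p are named, and further genes were named after their values were seen. The members, the pathway lists and the marker lists were chosen with earlier results of these data known. No pairing of rats by replicate number was seen: same-numbered arrays correlated at -0.322 to 0.236 over 24 pairs, and 3 of 16 arrays had their best match under the same number. This check cannot exclude a pairing. Promoter stretches came from a RefSeq table on GRCr8. The alternatives were no centring, cyclic loess, the array level as a block or the higher level alone, the methods' t-test (unpaired, equal variance), the methods' threshold, the 8 arrays compared alone, array weights, the replicate number as a block, all probe sets of a gene averaged, the upper 50% of genes by mean, and leaving out each array. Under the methods' threshold a gene passed by fold and unadjusted p, and under all others by adjusted p.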

Additional observations from a re-analysis of the deposited data

Results flagged for a closer look

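Within a group of 4 arrays, 5 values of the named members stood apart from the other 3 of their group by Dixon's ratio, of 68 groups looked at, and chance alone flags about 1 group in 20. Control replicate 4 was high for 4 genes of collagen synthesis, Col1a1 at 4.006 against 3.323 for the next control, Col3a1 at 5.641 against 5.354, Col14a1 at 3.672 against 3.19 and P4ha1 at 2.669 against 2.234. Control replicate 3 was low for Serpinh1, at 4.058, with the other controls from 4.46 to 4.482. Without control replicate 4 the count of members that passed at 16 weeks went from 12 to 13, Col1a1 being the one added.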

How the results depend on the processing

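Counts in this section are given without the share of all genes in the same fit. Of the members' counts, that at 16 weeks was 12 and stayed between 8 and 15 in most alternatives. It was 5 with the methods' t-test (4 higher, with 1 lower, Col2a1) and 7 to 14 on leaving out each array, with 7 without control replicate 1 or 16-week replicate 2. At 24 weeks (4 passed) the count was 7 as deposited, 0 with array level as a block, 0 with the methods' t-test, 7 at the methods' threshold, 7 with array weights and 0 to 7 on leaving out each array, with 0 without control replicate 1 or 2 or 24-week replicate 3, 2 without control replicate 3 or 24-week replicate 2, and 7 without 24-week replicate 4. At 8 weeks (0 passed) it was 2 with array level as a block, 4 within the higher level, 8 at the methods' threshold, 5 with only the 8 arrays compared, 7 with array weights, 1 among the upper 50% of genes and 0 to 4 on leaving out each array, with 4 without 24-week replicate 2 and 1 without control replicate 4, 16-week replicate 1 or 24-week replicate 4. Between 8 and 16 weeks (0 passed) it was 4 within the higher level and 3 at the methods' threshold. Between 16 and 24 weeks it was 7 at the methods' threshold and 0 to 1 on leaving out each array, and between 8 and 24 weeks 3 at the methods' threshold. The arrays of the higher level give no value for 24 weeks. With the methods' t-test the marker lists had 5 genes past the threshold in place of 18 at 16 weeks, and the pathway lists 2 in place of 9. The alternatives for the pathway and marker lists were chosen after seeing the data. With the replicate number as a block 12 members passed at 16 weeks, 4 at 24 weeks and 0 at 8 weeks, as without it. The numbers are shared labels, and no label names a pairing. Of the 51 differences from control of the 17 members with per-array values, 6 changed sign under some alternative, none of them past the threshold as reported or where the sign changed. As deposited these were Loxl2 at 24 weeks (-0.11) and Serpinh1 at 16 weeks (-0.036) and 24 weeks (-0.096). Col5a3 at 24 weeks was 0.045 with array weights, and Col6a5 at 8 weeks was 0.103 with array level as a block and 0.108 within the higher level. On leaving out each array Col4a1 at 24 weeks ran from -0.097 to 0.045, Col5a3 at 24 weeks from -0.151 to 0.066, Col6a5 at 8 weeks from -0.146 to 0.108, and Serpinh1 from -0.098 to 0.173 at 16 weeks and from -0.029 to 0.263 at 24 weeks. The cause of each shift was not tested. Precision is limited by 4 arrays per group, and 29 of the 54 members lie in the dimmer part of the genes, outside the upper 50% that holds 25. Among the dimmer members are Col5a3, Col8a2, Col12a1 and Loxl2, which rose at 16 weeks, and Col6a5, which fell at 24 weeks. Col2a1, Col9a2 and Col10a1, below all controls at 16 weeks, are dimmer members too.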

Other observations

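Of the 5 pairs of members that stand next to each other in the rat gene order, Col3a1 and Col5a2 was the pair in which both rose at 16 weeks, by 0.45 and 0.86. The pair Col6a5 and Col6a6, filament chains of type VI collagen, differed from control by -0.37 and -0.79 at 16 weeks and by -0.98 and -0.36 at 24 weeks. In the basement-membrane pair Col4a1 and Col4a2 the differences at 16 weeks were 0.15 and -0.35, and in the pair Col6a1 and Col6a2 they were -0.026 and -0.35. Col9a1 and Col19a1 differed by -0.23 and 0.03.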
